A study of Homo sapiens with 48 samples.

Results

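Transcripts of 35 genes that answer stress in the endoplasmic reticulum (ER) or a shortage of amino acids were followed among 20399 measured genes. They were chosen by symbol, with the probe of highest mean over all samples standing for each gene, and all 35 were measured. An ER chaperone arm held 17 genes and an ATF4 and amino acid arm held 18. The cells were THP-1, a human monocytic leukaemia line, and both exposed and control cells had been made macrophage-like with PMA, a phorbol ester. Carbon materials labelled SES, Fullerene, Graphite, Baytube, tCNT and rCNT were given at 100 µg in fresh medium, for 6 h or for 24 h, with 3 samples per exposed group. Medium controls were harvested at 6 h and at 24 h, with 6 samples each, which makes 48 samples in all. Nothing in the labels says that samples of a group were separate cultures, so p-values measure only the spread between these samples, which may be technical. The cells are 1 line in culture, and fewer cells of a type cannot be told apart from less RNA per cell in such bulk samples.

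Proteins destined for secretion fold in the ER with the help of chaperones. When unfolded proteins build up there, the sensor ERN1 (also called IRE1) splices the XBP1 transcript and the sensor ATF6 is cleaved, and the resulting factors raise the genes of chaperones, disulfide isomerases and the degradation machinery. A further branch slows translation through phosphorylation of the initiation factor eIF2, which favours translation of ATF4. ATF4 raises genes of amino acid synthesis and transport, and because a shortage of amino acids and other stresses reach eIF2 through kinases of their own, the ATF4 branch can act without the chaperone branch. Macrophages secrete large amounts of protein and use this system in inflammation. Splicing of XBP1 and translation of ATF4 are not seen by these probes, which read the total transcript.

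Promoter elements known from each arm are shown here for the genes whose values are described below. Promoters of 32 of the 35 genes were found in a RefSeq table of build GRCh38.p14, and the 250 bases before each start were searched on both strands. The ER stress response element, ERSE, is CCAAT and CCACG with 9 bases between them, and it stood in 6 genes of the ER arm, against 0.074% of all 35116 promoters. It was found in 6 of 16 matched ER arm genes and in 0 of 16 matched ATF4 arm genes. The 4 windows below run 5′ to 3′ on the gene's strand, with the element in capitals, and show it on the same strand in HSPA5, XBP1 and PDIA6 and on the opposite strand in CRELD2.
HSPA5, minus strand, chr9:125241371-125241429: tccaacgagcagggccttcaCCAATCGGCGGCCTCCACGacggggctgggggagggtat
XBP1, minus strand, chr22:28800583-28800641: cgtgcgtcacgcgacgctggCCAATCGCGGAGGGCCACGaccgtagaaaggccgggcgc
PDIA6, minus strand, chr2:10812833-10812891: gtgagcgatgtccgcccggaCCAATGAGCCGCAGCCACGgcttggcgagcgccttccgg
CRELD2, plus strand, chr22:49918534-49918592: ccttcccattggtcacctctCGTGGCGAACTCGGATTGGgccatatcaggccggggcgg

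The shorter ERSE-II, ATTGG and CCACG with 1 base between them, stood in HERPUD1, SDF2L1 and HYOU1, against 0.0513% of all promoters, and HYOU1 held it at 2 places. The first HYOU1 place overlaps a match to the unfolded protein response element UPRE (TGACGTGG), which 0.612% of promoters held. Windows with the ERSE-II in capitals are given for the genes whose values are described most below.
HERPUD1, plus strand, chr16:56932005-56932055: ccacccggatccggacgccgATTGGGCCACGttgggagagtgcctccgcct
SDF2L1, plus strand, chr22:21642094-21642144: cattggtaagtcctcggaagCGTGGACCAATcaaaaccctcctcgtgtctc
HYOU1, minus strand, chr11:119057360-119057410: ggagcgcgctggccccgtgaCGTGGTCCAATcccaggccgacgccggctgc
HYOU1, minus strand, chr11:119057254-119057304: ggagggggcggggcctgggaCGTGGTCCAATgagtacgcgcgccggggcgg

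The C/EBP-ATF response element, CARE, to which ATF4 binds, was searched as TGATGNAA. It stood in ASNS and CHAC1, 2 of 16 matched ATF4 arm genes, and in HERPUD1, 1 of 16 in the ER arm, against 3.14% of all promoters. An ERSE or ERSE-II stood in 9 of 16 ER arm genes and in 0 of 16 ATF4 arm genes, so these letters differed between the arms. CARE did not separate them, since most ATF4 arm genes held none, and HERPUD1 held letters of both kinds. A match is a description of the letters and was not tested as a binding site.
ASNS, minus strand, chr7:97872449-97872496: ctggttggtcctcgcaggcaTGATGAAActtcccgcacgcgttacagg
CHAC1, plus strand, chr15:40953242-40953289: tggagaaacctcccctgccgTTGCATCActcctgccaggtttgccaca
HERPUD1, plus strand, chr16:56931946-56931993: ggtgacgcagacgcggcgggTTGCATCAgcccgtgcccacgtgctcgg

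Before the groups are compared, a limit of the labels has to be stated. Samples hybridised to 1 array in different dyes share its surface, and the columns that shared marks and values lay 20 or 40 places apart in the deposited table, not on the array that the labels name. The consensus correlation between columns 20 or 40 apart was 0.722, against -0.0224 between samples labelled as 1 array. Each group below is therefore a group of samples so labelled, no sample was moved to another group, and columns 20 or 40 apart are called a column set. There were 8 column sets of 3 samples and 12 of 2, and in 18 of the 20 all samples carried different group labels. The macrophage markers CD68, CD14, ITGAM, CSF1R and SPI1 had means between 13.08 and 15.29 on the log2 scale, on which all values lay at or below 16.00. Of the markers of other cell types, EPCAM stood at 6.73, COL1A1 at 6.83 and MS4A1 at 6.86, while CD79A stood at 10.64, GNLY at 11.3 and PECAM1 at 12.76.

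The 35 genes were measured over most of the scale, and levels of different probes do not rank the genes. ERN1, the sensor kinase, was dim in all samples, between 6.77 and 7.99, and XBP1, its splicing target, lay between 12.92 and 14.94. The chaperones HSP90B1, the ER member of the HSP90 family, and CALR, a lectin chaperone, reached 15.98, and CALR was close to the end of the scale in 11 samples. CEBPB, a transcription factor of myeloid cells, was so in 3 samples and the secreted ER factor MANF in 2, and differences at the top of these genes are limited by that end. The disulfide isomerases PDIA3, PDIA4 and PDIA6 had medians of 15.01, 12.26 and 14.19. More than 1 probe was present for 10 of the genes, and of their 51 other probes 42 correlated above 0.5 with the chosen probe over the 48 samples. The probes of CEBPB had a median r of 0.944 and those of DDIT4, an inhibitor of mTOR signalling, of 0.93. A probe of XBP1 ran against the chosen probe at -0.372, where its 9 other probes had a median r of 0.669. A probe of SEL1L at -0.267 and the only other probe of PDIA3 at -0.087 did not follow the chosen probe. SEL1L and PDIA3 therefore rest on disagreeing probes.

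Exposed samples were set against the controls of the same time to ask whether a material moved these genes. None of the 35 passed in any of the 12 comparisons (limma, Benjamini-Hochberg adjusted p under 0.05 over all genes). In samples labelled Fullerene 6 h 0.446% of all genes passed, and in the other 11 comparisons 0.0%, which makes 0.0372% of all tests over the 12. Over the 420 tests of the 35 genes, 18 had an unadjusted p under 0.05, or 4.29%, against 4.5% of the tests of all genes. Of those 18, 7 were higher in exposed samples and 11 lower, where 2.93% of the tests of all genes were higher and 1.57% lower. The lowest adjusted p was 0.2061, and a change of at least 2-fold was reached in 31 of the tests. The median standard error of a log2 fold change over the 35 genes was 0.37. In simulated data of the Graphite 6 h comparison the same fit recovered 59% of 2-fold and 92% of 4-fold changes. In the data themselves, none of the 31 changes of at least 2-fold in the 35 genes passed. Among them were -3.99 for MANF and -3.10 for DNAJB9 in samples labelled Graphite 24 h. The simulated shares therefore cannot be read as power for the 35 genes.

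**Figure D1:**
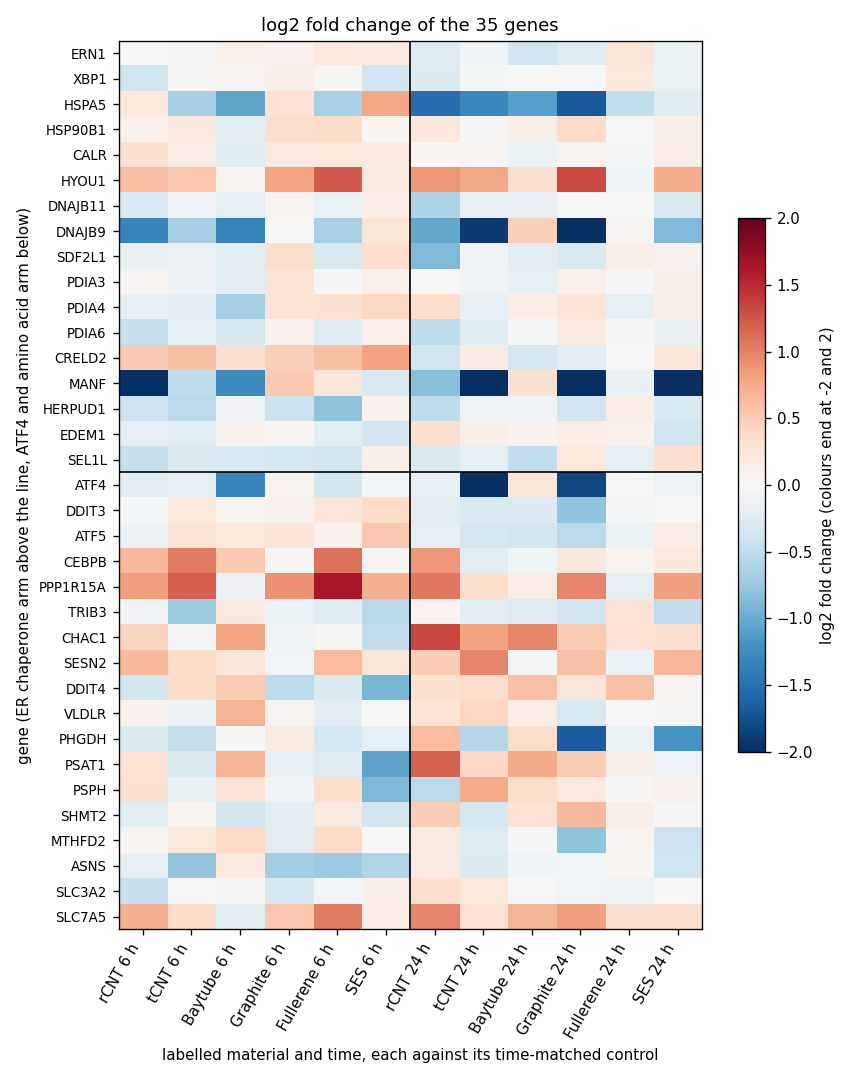
Log2 fold change of each of the 35 genes (down the page) in each labelled material and time against its time-matched control (across), with the ER chaperone arm above the horizontal line and the 6 h comparisons left of the vertical line. Values run from -3.99 for MANF in samples labelled Graphite 24 h to 1.63 for PPP1R15A in samples labelled Fullerene 6 h, and no value passed the test.

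5 genes are the usual reporters of the arms, and their values in each labelled group are plotted. HSPA5 encodes BiP, the main ER chaperone of the HSP70 family. Its means in the exposed groups at 6 h ran between 10.86 in samples labelled Baytube and 12.66 in samples labelled SES, against 11.89 ± 1.47 in the 6 h control (SD, n = 6). At 24 h the exposed means ran between 10.79 in samples labelled Graphite and 12.22 in samples labelled SES, and all 6 lay below the 24 h control at 12.47 ± 0.39 (SD, n = 6). The groups overlapped in every comparison of HSPA5 except that of samples labelled Graphite 24 h. HERPUD1, a membrane protein of ER-associated degradation, had exposed means between 13.14 and 14.03 at 6 h, against 13.95 ± 0.22 in the control (SD, n = 6). At 24 h its exposed means lay between 13.29 and 13.94, against 13.80 ± 0.25 in the control (SD, n = 6).

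ATF4, the transcription factor of the amino acid arm, had exposed means between 12.93 and 14.31 at 6 h, against 14.23 ± 1.70 in the control (SD, n = 6). At 24 h they ran between 12.42 in samples labelled tCNT and 14.88 in samples labelled Baytube, against 14.64 ± 1.00 in the control (SD, n = 6). The low means came from single samples at 9.30, 9.74 and 10.70, and a control sample stood at 10.82. DDIT3 encodes CHOP, a factor linked to death of stressed cells. Its exposed means lay between 12.23 and 12.65 at 6 h, against 12.25 ± 0.51 in the control (SD, n = 6), and between 11.77 and 12.56 at 24 h, against 12.58 ± 0.43 in the control (SD, n = 6). ASNS, asparagine synthetase, ranged between 10.86 and 11.82 in exposed means at 6 h, against 11.64 ± 0.90 in the control (SD, n = 6). At 24 h its exposed means were between 11.07 and 11.63, against 11.47 ± 0.47 in the control (SD, n = 6). The pooled SD within groups was 1.01 for HSPA5, 0.446 for HERPUD1, 1.39 for ATF4, 0.45 for DDIT3 and 0.80 for ASNS. Between the lowest and the highest of the 14 group means lay 1.87, 0.888, 2.46, 0.874 and 0.96, and neighbouring groups in that order differed by less than the spread within groups, except that DDIT3 in samples labelled Graphite 24 h, at 11.77, lay below the next group, samples labelled rCNT 6 h at 12.23, by about that spread.

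**Figure D2:**
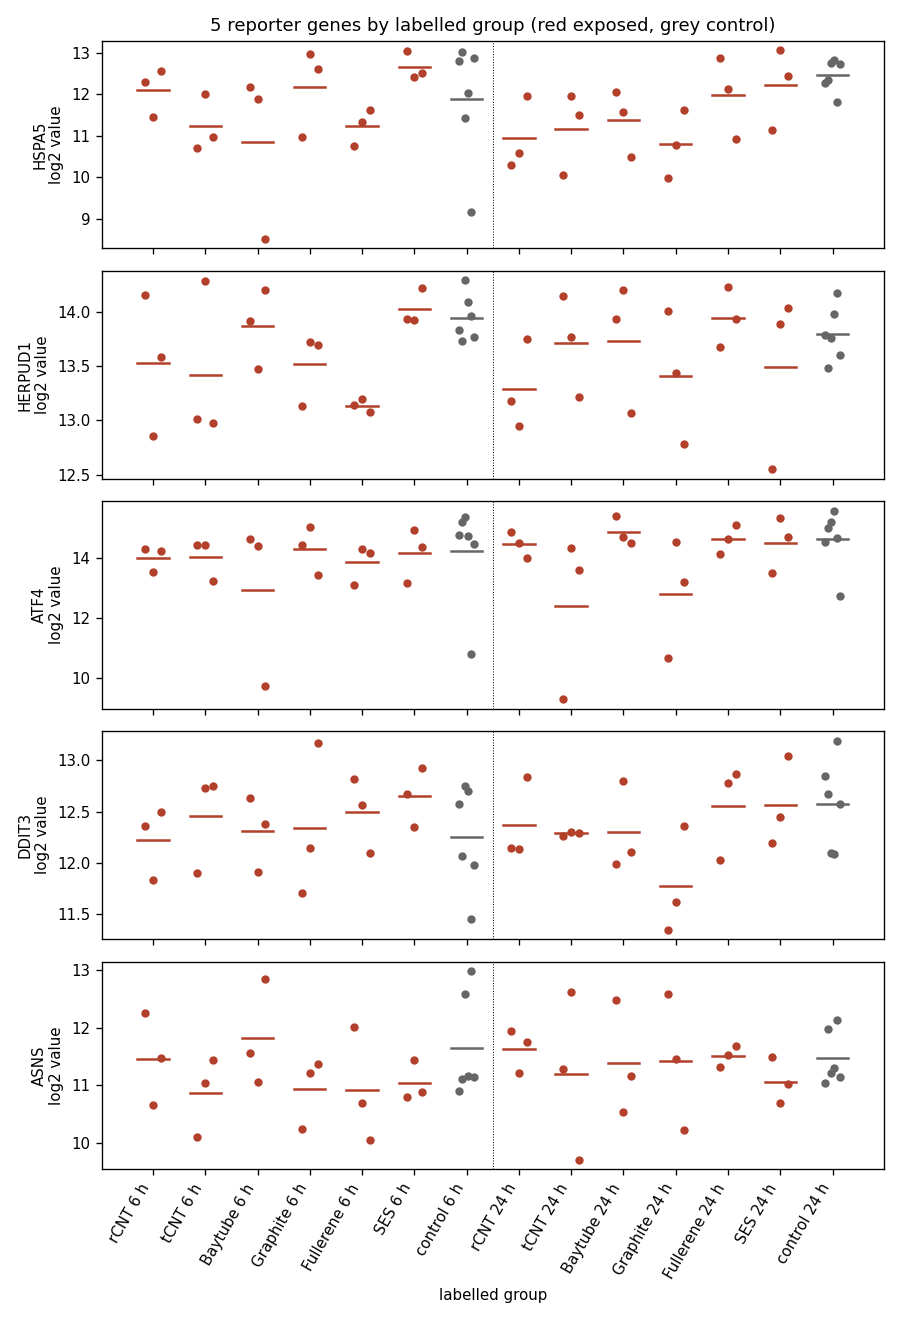
Log2 values of HSPA5, HERPUD1, ATF4, DDIT3 and ASNS (vertical axes) in each sample by labelled group (horizontal axis), with exposed groups in red left of the grey control of the same time, and a bar at each group mean. HERPUD1 in samples labelled Fullerene 6 h lies between 13.08 and 13.19, below all 6 control samples, while most other groups overlap their control.

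At 6 h, 4 of the 35 genes had an unadjusted p under 0.05 in samples labelled Fullerene, where 11.2% of all genes did. HERPUD1 stood at 13.14, 13.19 and 13.08 in samples labelled Fullerene 6 h, against 13.73, 13.90 and 14.29 as the lowest, median and highest control. All 3 exposed samples lay below all controls, a pattern shown by 1.85% of all genes, and the log2 fold change was -0.81 ± 0.31 (SE, with an adjusted p of 0.3219 by limma). SLC7A5, the light chain of a transporter of large neutral amino acids, read 11.36, 12.29 and 12.58 in those samples, against 10.67, 11.01 and 11.58 in controls. Its groups overlapped through replicate 1, and it was higher by 1.04 ± 0.42 on the log2 scale (SE, with an adjusted p of 0.3465 by limma). HYOU1, an ER chaperone of the HSP110 family, was at 9.28, 10.80 and 11.02, against 8.50, 9.20 and 9.66 in controls, a difference of 1.23 ± 0.52 (SE, with an adjusted p of 0.367 by limma). PPP1R15A, the phosphatase subunit that reverses eIF2 phosphorylation, read 11.83, 13.99 and 13.25, against 10.67, 11.12 and 12.90, a difference of 1.63 ± 0.78 (SE, with an adjusted p of 0.4358 by limma). For SLC7A5, HYOU1 and PPP1R15A it was replicates 2 and 3 that were high and replicate 1 that lay within the range of the controls. The arms as wholes stayed near 0, with medians of -0.04 in the ER arm and 0.06 in the ATF4 arm, against -0.01 over all genes.

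In samples labelled tCNT 6 h, TRIB3, a pseudokinase that restrains ATF4, had the smallest p of its arm. It stood at 12.91, 13.04 and 12.44 in those samples, against 13.23, 13.54 and 13.78 in controls, with no overlap, which 0.77% of all genes showed in that direction. The log2 fold change was -0.73 ± 0.33 (SE, with an adjusted p of 0.7623 by limma), and it was the only 1 of the 35 with an unadjusted p under 0.05, against 6.27% of all genes. CRELD2, a secreted ER factor, led the ER arm in samples labelled rCNT, tCNT and SES 6 h. It read 13.53, 13.38 and 13.45 in samples labelled SES 6 h, against 11.00, 13.14 and 13.42 in controls. The 3 exposed samples lay close together near the top of a wide control group, at a log2 fold change of 0.81 ± 0.31 (SE, with an adjusted p of 0.9998 by limma), where 0.677% of all genes had an unadjusted p under 0.05. Without control 6 h replicate 5 it was 0.51. CRELD2 was at 13.17, 13.59 and 12.74 in samples labelled rCNT 6 h and at 12.88, 13.24 and 13.60 in samples labelled tCNT 6 h, with overlap in both.

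PDIA4, a disulfide isomerase, read 11.94, 11.76 and 10.95 in samples labelled Baytube 6 h, against 11.93, 12.21 and 12.49 in controls. Its log2 fold change was -0.67 ± 0.33 (SE, with an adjusted p of 0.9999 by limma), the only 1 of the 35 under 0.05 where 0.941% of all genes were, and it was -0.34 without Baytube 6 h replicate 3. VLDLR, a lipoprotein receptor induced by ATF4, led the other arm there with 9.84, 10.64 and 10.97, against 9.21, 9.72 and 10.70 in controls. In samples labelled Graphite 6 h none of the 35 had an unadjusted p under 0.05, against 1.94% of all genes, and HSP90B1 and SLC7A5 had the smallest of their arms (limma adjusted p = 0.9998 for both). HSP90B1 read 15.42, 15.87 and 15.89 there, against 15.19, 15.23 and 15.72 in controls, and SLC7A5 read 12.28, 11.30 and 11.15, against 10.67, 11.01 and 11.58. HERPUD1 lay below all controls in samples labelled Graphite 6 h too, at 13.13, 13.72 and 13.70 against a lowest control of 13.73, which 0.603% of all genes did (limma adjusted p = 0.9998). In samples labelled rCNT 6 h, where 2.31% of all genes had an unadjusted p under 0.05 and none of the 35 did, SLC3A2, the heavy chain that pairs with SLC7A5, had 12.94, 14.02 and 13.68, against 13.51, 14.01 and 14.32. DDIT4 had the smallest p of its arm in samples labelled SES 6 h, with 11.02, 10.48 and 10.10, against 10.50, 11.47 and 12.56 in controls.

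At 24 h the arms lay furthest apart in samples labelled rCNT. There 12 of 17 ER arm genes were below their control and 14 of 18 ATF4 arm genes above it, with medians of -0.29 and 0.33 on the log2 scale, against -0.01 over all genes. The ATF4 arm median was 0.166 without rCNT 24 h replicate 1 and 0.54 without rCNT 24 h replicate 3. SDF2L1, an ER protein that works with BiP, stood at 13.16, 13.10 and 13.45 in samples labelled rCNT 24 h, against 13.73, 14.18 and 14.42 in controls. All 3 lay below all controls, as did 2.18% of all genes, at a log2 fold change of -0.88 ± 0.30 (SE, with an adjusted p of 0.9104 by limma). HSPA5 read 10.28, 10.58 and 11.96, against 11.83, 12.55 and 12.84, with overlap through replicate 3 and a log2 fold change of -1.53 ± 0.70 (SE, with an adjusted p of 0.9104 by limma). SLC7A5 read 13.07, 12.05 and 10.87, against 10.62, 11.06 and 11.37, with 2 samples above and 1 among the controls, at a log2 fold change of 0.97 that was 0.43 without replicate 1 and 1.49 without replicate 3. SDF2L1, HSPA5 and SLC7A5 were the 3 genes of the 35 with an unadjusted p under 0.05, against 4.5% of all genes. With column sets as a random block the ER arm median there was -0.11 and the ATF4 arm median 0.285. The log2 fold changes were then -0.56 for SDF2L1, -0.66 for HSPA5 and 0.28 for SLC7A5 (adjusted p of 0.9998 for each by limma). With sets of 4 columns next to each other in the table as a term they were -0.52, -0.43 and 0.14.

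In samples labelled Graphite 24 h, 5 of the 35 genes had an unadjusted p under 0.05, where 15.7% of all genes did. DDIT3 stood at 11.35, 11.61 and 12.36 in those samples, against 12.08, 12.62 and 13.19 in controls, with overlap through replicate 3. Its log2 fold change was -0.80 ± 0.31 (SE, with an adjusted p of 0.2061 by limma), the lowest adjusted p among the tests of the 35 genes. HYOU1 read 9.92, 10.60 and 10.94 in samples labelled Graphite 24 h, against 8.88, 9.11 and 9.54 in controls. All 3 lay above all controls, as did 6.48% of all genes, at 1.33 ± 0.52 (SE, with an adjusted p of 0.2126 by limma). HSPA5 went the other way, with 9.97, 10.78 and 11.63, against 11.83, 12.55 and 12.84, all below all controls, as were 3.88% of all genes. Its log2 fold change was -1.68 ± 0.70 (SE, with an adjusted p of 0.2397 by limma). MTHFD2, a mitochondrial folate enzyme, read 12.32, 13.85 and 14.24, against 13.95, 14.16 and 14.89, and ATF4 read 10.70, 14.56 and 13.21, against 12.75, 14.85 and 15.60. In a fit of these groups alone HSPA5 and HYOU1 passed, with adjusted p values of 0.0434 and 0.0382, where 3.99% of all genes passed. With column sets as a random block HSPA5 had -0.33 and HYOU1 0.16 on the log2 scale (adjusted p of 0.9999 for each by limma). With sets of 4 columns next to each other in the table as a term they had 0.08 and 0.10.

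ATF4 and SESN2, a stress-induced inhibitor of mTOR signalling, were the 2 genes with an unadjusted p under 0.05 in samples labelled tCNT 24 h, where 2.19% of all genes did. ATF4 read 9.30, 14.35 and 13.61 there, against 12.75, 14.85 and 15.60 in controls, so that replicate 1 alone lay below the controls (-2.22 ± 0.88, SE, with an adjusted p of 1 by limma, and -0.66 without that sample). SESN2 read 10.90, 11.00 and 10.80, against 9.62, 9.78 and 10.77, all above all controls, as were 1.71% of all genes, at a log2 fold change of 0.98 ± 0.39 (SE, with an adjusted p of 1 by limma). HSPA5 had the smallest p of the ER arm in samples labelled tCNT 24 h, with 10.05, 11.96 and 11.50, against 11.83, 12.55 and 12.84, at a log2 fold change of -1.30. With column sets as a random block SESN2 there was 0.22 and HSPA5 -0.20, and with sets of 4 columns as a term 0.70 and -0.05. In samples labelled Baytube 24 h the dim ERN1 read 6.80, 6.99 and 6.77, against 6.97, 7.14 and 7.80, at -0.38 ± 0.17 (SE, with an adjusted p of 0.9673 by limma), the only 1 of the 35 under 0.05 where 4.69% of all genes were. SLC7A5 was above all controls in samples labelled Baytube 24 h, at 11.48, 11.47 and 12.15 against 10.62, 11.06 and 11.37, as were 0.936% of all genes (limma adjusted p = 1). None of the 35 had an unadjusted p under 0.05 in samples labelled Fullerene 24 h or SES 24 h, against 0.613% and 2.97% of all genes. The smallest p values there were those of ERN1 at 7.41, 7.99 and 7.00 and DDIT4 at 11.57, 11.22 and 11.84 in samples labelled Fullerene 24 h, against control medians of 7.14 and 10.89. In samples labelled SES 24 h they were those of HYOU1 at 11.04, 9.57 and 9.11 and SESN2 at 11.71, 10.47 and 9.59, against control medians of 9.11 and 9.78, each with replicate 1 high.

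Set together, the 36 exposed samples were compared with the 12 controls, and none of the 35 genes passed (limma, adjusted p under 0.05), as 0.0% of all genes did. HYOU1, SLC7A5 and SESN2 had an unadjusted p under 0.05, 3 of the 35 where 8.47% of all genes did. HYOU1 ranged over 8.59, 9.44 and 11.37 as the lowest, median and highest exposed sample, against 8.50, 9.15 and 9.66 in controls, at a log2 fold change of 0.61 ± 0.24 (SE, with an adjusted p of 0.5698 by limma). SLC7A5 had 10.64, 11.35 and 13.07 in exposed samples, against 10.62, 11.05 and 11.58 in controls, at 0.50 ± 0.20 (SE, with an adjusted p of 0.5698 by limma). The groups overlapped at their lower ends, and the exposed samples alone reached higher. Controls at 24 h against controls at 6 h gave 0 passing genes among the 35 and 1 with an unadjusted p under 0.05, CRELD2 at 0.58 ± 0.25 (SE, with an adjusted p of 0.9997 by limma), against 1.14% of all genes. None of the 35 passed for a difference in response between 24 h and 6 h for any of the 6 materials by the interaction term (limma, lowest adjusted p 0.5444, for DDIT3 and Graphite). At an unadjusted p under 0.05 these were SLC3A2 for rCNT, DDIT3 for Graphite and HERPUD1 for Fullerene, 1 gene in each, against 1.3%, 9.12% and 4.3% of all genes. For tCNT, Baytube and SES there were none, against 2.97%, 2.45% and 1.61%. In the F test over the 12 comparisons 0 of the 35 passed and their lowest adjusted p was 0.9998, against 0.0098% of all genes passing. At an unadjusted p under 0.05 there were 0 of the 35, against 3.02% of all genes, and SDF2L1 had the lowest.

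Other genes of the same pathways gave no calls. Of 30 further ER genes, such as the sensor ATF6, the lectin chaperone CANX and the oxidase ERO1A, 29 were measured, and 0 of their 348 tests passed, with 16 (4.6%) at an unadjusted p under 0.05, 6 of them higher and 10 lower. The 28 measured of 29 further ATF4 and amino acid genes, such as the eIF2 kinase EIF2AK3 and the cystine transporter SLC7A11, also gave 0 passing tests of 336. Here 16 (4.76%) had an unadjusted p under 0.05, 13 of them higher and 3 lower. Of the tests of all genes over the 12 comparisons, 4.5% were under 0.05, 2.93% higher and 1.57% lower. The totals of both lists lay near that 4.5%. The lowest adjusted p was 0.1852 for DNAJC10, an ER disulfide reductase, and 0.1904 for ADM2, a secreted peptide, both in samples labelled Graphite 24 h.

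Where a column stood in the table moved with the same genes far more than its label did. Column sets differed in 28 of the 35 genes (limma F test, adjusted p under 0.05), against 92.0% of all genes. The 7 that did not pass were SDF2L1 and EDEM1 of the ER arm and ATF5, TRIB3, DDIT4, PSAT1 and ASNS of the ATF4 arm. Column set held a median of 76.6% of the variance of a gene over samples, between 32.7% for PSAT1, the second enzyme of serine synthesis, and 99.0% for MANF, where the number of sets alone gives 40.4%. Labelled group held a median of 23.1%, where the number of groups alone gives 27.7%. For all genes the medians were 80.0% and 24.2%. The mean of the ER arm had 81.3% of its variance between column sets, and the mean of the ATF4 arm 51.1%.

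HYOU1, PPP1R15A and SLC7A5 are examples. In the 12 samples at places 1 to 4, 21 to 24 and 41 to 44 of the table HYOU1 lay between 10.38 and 11.37, against 8.50 and 10.19 in the other 36. PPP1R15A lay between 13.25 and 13.99 in those 12, against 10.18 and 12.90 elsewhere, and SLC7A5 between 11.96 and 13.07, against 10.62 and 11.71. None of the 3 genes overlapped between these places and the rest, and the share of all genes without overlap was not counted. Sets of 4 places held 83.9%, 76.2% and 79.2% of the variance of HYOU1, PPP1R15A and SLC7A5, the highest shares among the 35. The median share was 29.5% over the 35 genes and 29.6% over all genes. The 12 samples carried 9 different group labels and none was a control. They included 2 of the 3 samples labelled Fullerene 6 h, replicates 2 and 3, and 2 of 3 labelled Graphite 24 h and rCNT 24 h. In these groups they include the samples with the 2 highest HYOU1 or SLC7A5 values given above. With sets of 4 places as a term in the fit, HYOU1 had a log2 fold change of 0.18 in samples labelled Fullerene 6 h, 0.10 in samples labelled Graphite 24 h and 0.07 over all exposed samples, and SLC7A5 had 0.18, -0.01 and 0.06. HERPUD1 was lower at those places, between 12.55 and 13.43, against 12.97 and 14.29 elsewhere, and its Fullerene 6 h value with the same term was -0.29. HSPA5 had 1.06 in samples labelled Fullerene 6 h with that term (limma adjusted p = 0.3892), against -0.65 without it, and 0.08 in samples labelled Graphite 24 h. Since no control lay at these places, exposure and place cannot be fully told apart for these genes.

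**Figure D3:**
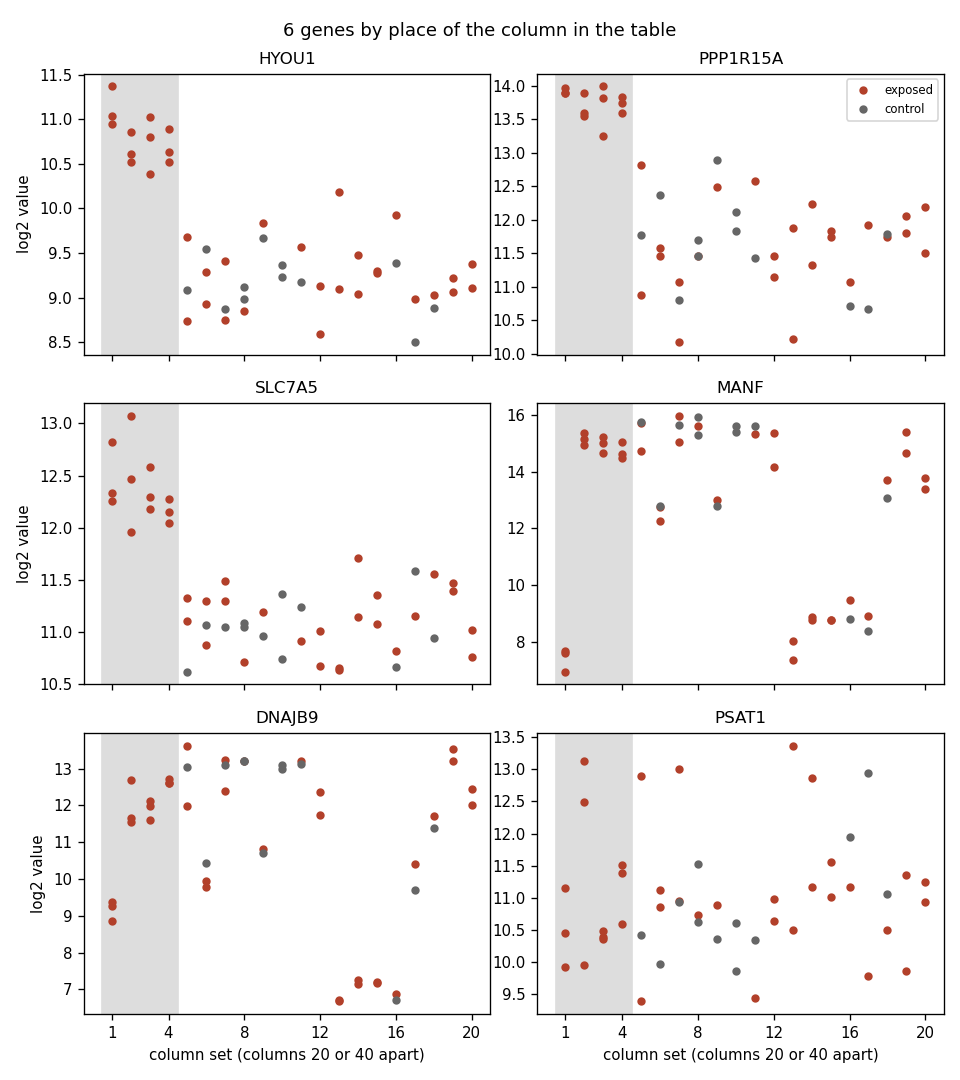
Log2 values of HYOU1, PPP1R15A, SLC7A5, MANF, DNAJB9 and PSAT1 (vertical axes) in each sample by column set (horizontal axis), with exposed samples in red, controls in grey and the places 1 to 4 of each run of 20 columns shaded. HYOU1, PPP1R15A and SLC7A5 are high in the 12 shaded samples, MANF and DNAJB9 lie in a low band in whole column sets, and PSAT1 spreads widely within sets.

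Other genes were split into separate bands by column set, with the dividing values chosen after the values were seen. MANF lay between 6.94 and 9.45 in 13 samples, which were all the samples of 6 column sets and carried 10 group labels, and between 12.28 and 15.97 in the other 35. DNAJB9, an ER co-chaperone, lay between 6.67 and 7.25 in 8 samples, all those of 4 sets, and between 8.87 and 13.61 in the other 40. ATF4 was low in the 4 samples of 2 sets, between 9.30 and 10.82, against 12.75 and 15.60 in the other 44. PSPH, the last enzyme of serine synthesis, was low in the 3 samples of 1 set, between 9.04 and 9.51, against 11.53 and 13.19. Smooth marks on the array surface reached -1.09 at the spot of MANF and -0.99 at that of ATF4, smaller than these steps. The surface marks of the low samples had a median SD of 0.42 for ATF4, 0.28 for DNAJB9, 0.2 for MANF and 0.08 for PSPH. The median over all samples was 0.11, and the part of the surface in these steps was not tested. The group labelled Graphite 24 h, with -3.99 for MANF, -3.10 for DNAJB9 and -1.81 for ATF4 on the log2 scale, held low samples of all 3 genes. PHGDH was low in 5 samples, between 6.80 and 7.91, against 8.23 and 12.95 in the other 43. Its low samples came from 3 sets that held 7 samples, so they did not make up whole sets. The share of all genes with such bands was not counted.

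Within column sets, whose samples mostly carry different labels, the arms ran against each other. Each sample was expressed as its deviation from the mean of its column set. The ER arm mean and the ATF4 arm mean then correlated at r = -0.64 (Spearman's rho -0.684) over 48 deviations, against 0.00 (rho -0.113) over the 48 samples and 0.29 over the 20 set means. The value over samples depended on the averaging. With medians over genes in place of means, r was -0.408 (rho -0.464) over the 48 samples and -0.61 over the 48 deviations. These deviations have 28 degrees of freedom, they share column sets and probes, and the correlations are descriptions across samples. The arms deviated in opposite directions in 42 of the 48 samples, that is in 11 of 12 sets of 2 and in 20 of 24 samples in sets of 3. ER arm deviations ran between -0.26 and 0.28 on the log2 scale, and those of the ATF4 arm between -0.57 and 0.46. With the third of the table as a further term r was -0.75, and leaving out each column set in turn kept it between -0.67 and -0.61. Without 7 amino acid response genes of the ATF4 arm, named below, r was -0.38.

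**Figure D4:**
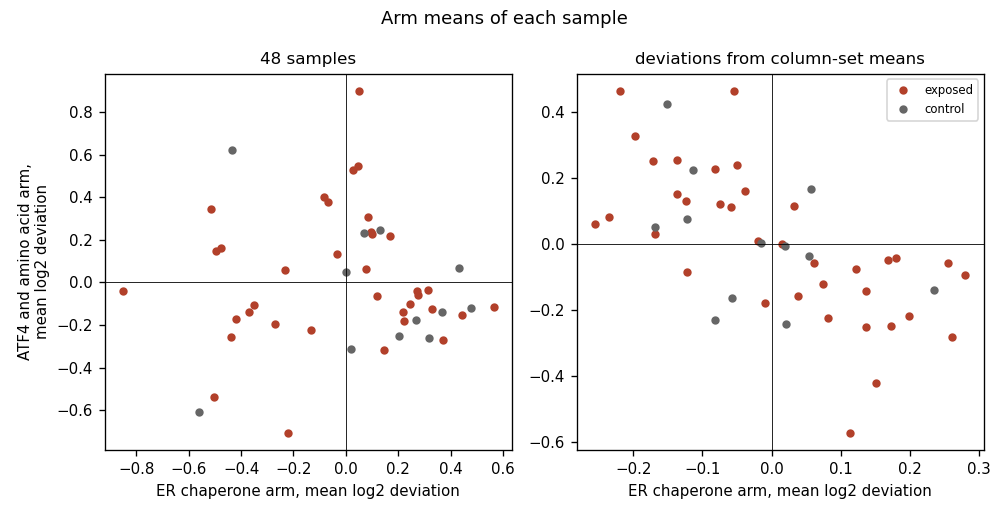
Mean log2 deviation of the ATF4 and amino acid arm (vertical axis) against that of the ER chaperone arm (horizontal axis), each point a sample, exposed in red and control in grey, with deviations taken from the mean of all samples (left) and from the mean of the sample's column set (right). The left panel shows no trend between arm means (r = 0.00, against -0.408 with medians over genes). In the right panel most samples lie at the upper left or lower right (r = -0.64).

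Several genes of amino acid synthesis ran closely together within column sets. PSAT1 correlated within column sets at 0.96 with ASNS, 0.95 with CHAC1, which breaks down glutathione, 0.92 with PHGDH, the first enzyme of serine synthesis, and 0.86 with SHMT2, a mitochondrial serine hydroxymethyltransferase. Over the 48 samples the same pairs had r of 0.77, 0.72, 0.36 and 0.35. TRIB3 at 0.84, VLDLR at 0.77, ATF4 at 0.74 and DDIT4 at 0.72 followed. In the ER arm 14 of 17 genes had a negative r with PSAT1 within sets, and 7 of the 17 lay below -0.5. The median over the 17 was -0.48, and the share of all genes with a negative r was not counted. The lowest were HSPA5 at -0.85, DNAJB9 at -0.78, HYOU1 at -0.72 and MANF at -0.68, while CRELD2 stood at -0.25 and PDIA6 at -0.07. EDEM1, a lectin of ER-associated degradation, went with PSAT1 at 0.64. The 7 genes TRIB3, CHAC1, DDIT4, VLDLR, PHGDH, PSAT1 and ASNS had a mean pairwise r of 0.79 within sets, between 0.51 and 0.96, against 0.47 over samples and 0.18 over set means. These 7 were picked after their values were seen, and the mean pairwise r of all genes was 0.002 within sets.

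Not all of the ATF4 arm ran with PSAT1. DDIT3, ATF5, CEBPB and PPP1R15A had a mean pairwise r of 0.58 within sets, between 0.35 and 0.81, and each ran against PSAT1, at -0.27, -0.66, -0.30 and -0.78. PPP1R15A had an r of 0.75 with HYOU1 and of -0.63 with ASNS. MTHFD2 showed an r of 0.25 with PSAT1, and of 0.67 with the third of the table as a further term. In the ER arm HSPA5, HYOU1, DNAJB11, SDF2L1, MANF and PDIA4 had a mean pairwise r of 0.71 within sets, between 0.50 and 0.88, against 0.00 over samples. XBP1, HERPUD1 and EDEM1 did not follow them closely, with r of 0.10, 0.09 and -0.52 with HSPA5. The median range between the samples of a set was 0.18 for HERPUD1, against 0.48 for HSPA5, 0.74 for ASNS and 0.91 for PSAT1. These groups were also picked after their values were seen.

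**Figure D5:**
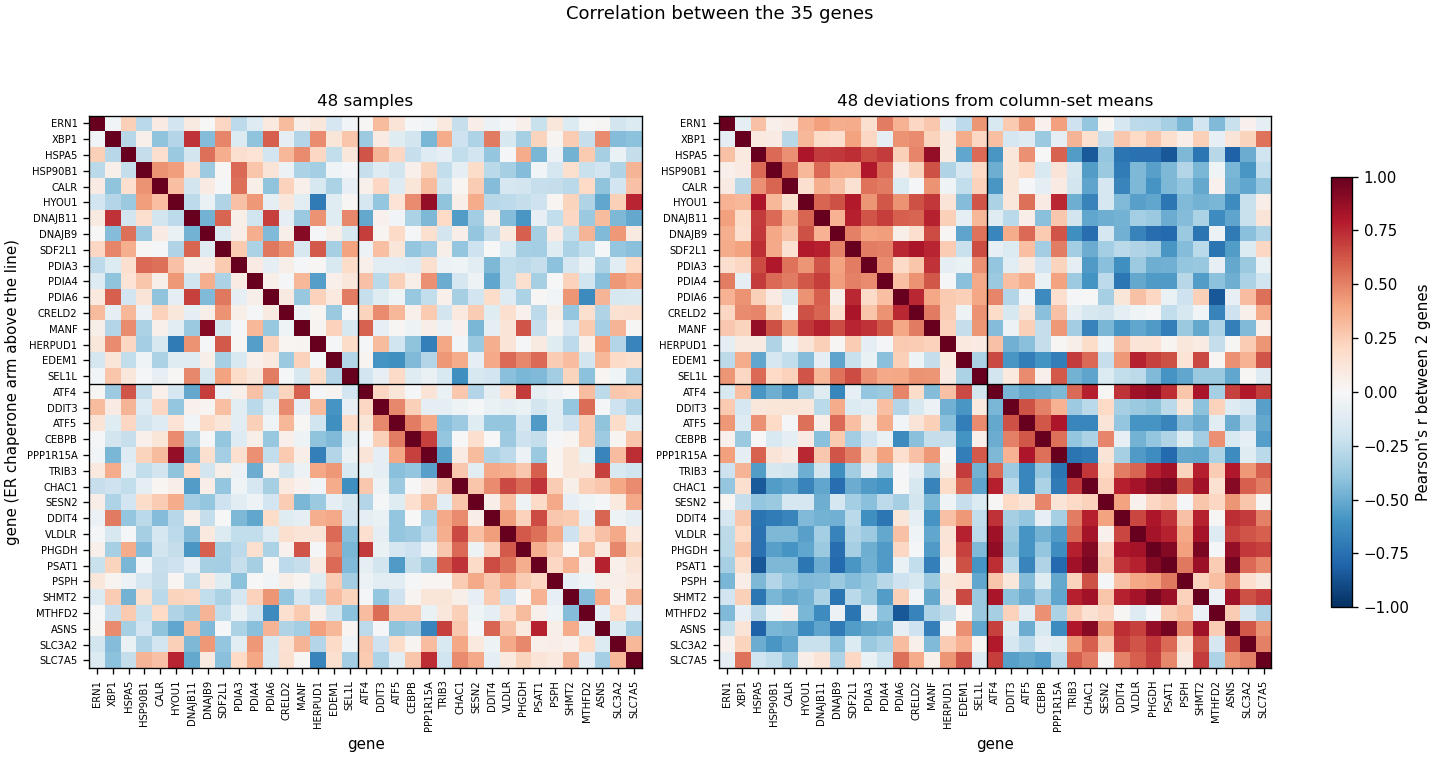
Pearson's r between each pair of the 35 genes (both axes) over the 48 samples (left) and over the 48 deviations from column-set means (right), with lines parting the ER chaperone arm, above and left, from the ATF4 and amino acid arm. On the right the chaperones form a red block led by HSPA5 and MANF, and the amino acid genes form another around PSAT1. The 306 pairs between the arms are mixed there, with a mean r of -0.18, between -0.85 and 0.77, and 94 above 0.

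A worked set shows the size of it. The column set of 3 with the widest spread of PSAT1 held tCNT 24 h replicate 2 and SES 6 h replicate 1 beside control 24 h replicate 6. PSAT1 stood at 12.90, 9.39 and 10.42 in these 3 samples and ASNS at 12.61, 10.80 and 11.14. CHAC1 read 10.58, 7.77 and 8.28 and PHGDH 12.95, 10.19 and 10.18, so the sample labelled tCNT 24 h was high in all 4. HSPA5 was at 11.96, 13.05 and 12.74 and SDF2L1 at 13.60, 14.24 and 13.73, with the same sample lowest, while CRELD2 was at 13.41, 13.53 and 13.10, with the control lowest. Over the 20 sets the sample highest in PSAT1 was also highest in CHAC1 in 18 sets, in PHGDH, SHMT2 and ASNS in 16 and in TRIB3 in 14, against a median of 8 sets over all other genes. Of other genes 0.187% reached 18 sets and 1.85% reached 16. HSPA5 was highest in that same sample in 4 sets and HYOU1, DNAJB9, PDIA4, CRELD2 and SEL1L in 3 each. The share of all genes with counts that low was not counted. EDEM1 of the ER arm had 14 sets, which 5.55% of other genes reached. XBP1 with 10 and ERN1 with 9 in the ER arm lay near the median of 8. So did CALR, PDIA3, PDIA6, MANF and HERPUD1 of that arm, with 6 each. In the ATF4 arm PPP1R15A with 6 and DDIT3 and CEBPB with 7 each also lay near it. Counts this near the median give no direction. The 20 samples highest in PSAT1 carried 10 group labels and 6 were controls. PSAT1 varied within sets by between 0.12 and 3.51 on the log2 scale, and by over 1 in 9 of the 20 sets.

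Part of the pathway genes outside the 35 ran with their arm within column sets. Of the 29 further ER genes, 14 correlated above 0.5 with the ER arm mean, 48.3% against 6.21% of all other genes. DNAJC10 at 0.76, CDK2AP2 at 0.74, the retrotranslocation proteins DERL1 at 0.69 and DERL2 at 0.65, CANX at 0.69 and the translocon subunit SEC61B at 0.67 were among them. Of the 28 further ATF4 genes, 14 correlated above 0.5 with the ATF4 arm mean, 50.0% against 8.45% of all other genes. The factor JDP2 stood at 0.93, the mitochondrial phosphoenolpyruvate carboxykinase PCK2 at 0.89, ADM2 at 0.88, CBS of the transsulfuration pathway at 0.85, the glycine transporter SLC6A9 at 0.83, the translation repressor EIF4EBP1 at 0.80 and the ATF4 partner CEBPG at 0.79. Across the arms, 11 of the 29 ER genes lay below -0.5 with the ATF4 arm mean, 37.9% against 9.67%, led by EDEM3 at -0.84 and the coat protein SEC24D at -0.83. In turn 7 of the 28 ATF4 genes lay below -0.5 with the ER arm mean, 25% against 4.14%, led by SLC38A2, an amino acid transporter, at -0.71. GDF15, a secreted stress cytokine often counted as an ATF4 target, went the other way, at -0.53 with the ATF4 arm and 0.58 with the ER arm, and EIF2AK3 stood at -0.75 with the ATF4 arm. No count over these lists was tested, and the lists were chosen with earlier results of these data known.

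The measured genes most like each arm over the 48 samples were found by Pearson's r with the arm mean. For the ER arm they were PRPS1 at 0.867, HAMP at 0.857, TFEC at 0.856, BTBD3 at 0.852 and RESF1 at 0.849, and column set held between 96.8% and 99.6% of the variance of each. For the ATF4 arm they were PCK2 at 0.785, CDCA7L at 0.766, PPP2R3B at 0.733, MACROH2A2 at 0.716 and DRD5 at 0.714, with column set holding between 32.1% and 78.8%. Within column sets the other genes closest to the ER arm were TRAF6 at 0.91, OSTC and STARD4 at 0.89 and TREML1 and TRIM13 at 0.87. Among these OSTC is a subunit of the oligosaccharyltransferase of the ER. Closest to the ATF4 arm were JDP2 at 0.93, H1-10, DHRS13 and FKBP9 at 0.92 and NSD2 at 0.91. CHAF1A, AARS1, MSH5 and TBCD also stood at 0.91, and AARS1 is the alanyl-tRNA synthetase.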

How the data were processed

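The values were log2 values of 45220 features in 48 samples, as deposited by the authors. Per the submitters' processing notes, the tools were limma and R 2.3. Normalisation and background correction: not given in the sources used here, so neither was undone or repeated. Sample groups came from the labels and columns were matched to samples by name. The feature of highest mean stood for each of 20399 symbols, named through the platform annotation and a RefSeq table. Values were fitted in limma 3.58.1 (R 4.3.3) with 14 groups and dye as terms over all 48 samples (32 residual degrees of freedom), with Benjamini-Hochberg adjustment per comparison at 0.05. Deviations were taken from the mean of each column set. Promoters are those of RefSeq, GRCh38.p14. PDIA3, PSPH and SHMT2 had no promoter entry, and KDELR2, GPT2 and FCGR1A were not found by symbol in the array annotation.

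The genes, lists, alternatives and column sets were chosen with earlier results of these data known. Genes were described in full if past the test, if among 5 reporters, or if of smallest unadjusted p in their arm in a comparison. Genes named for their course within column sets, and the groups formed from them, were chosen after their values were seen. The letter of the sample code was checked as a pairing: the mean r between deviations was 0.006 within a letter and 0.02 within a dye. No pairing by letter was used. Within a column set the mean r was 0.428. Column set was not a term of the main fit, so the standard errors and p-values of that fit ignore this link between samples. The fit was tested on simulated data.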

Additional observations from a re-analysis of the deposited data

Results flagged for a closer look

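Of 74 control groups of 6 samples examined, 8 held a sample set far apart from the other 5 by Dixon's criterion, which chance gives in about 1 in 20 groups. In the 24 h control, replicate 6 was low in XBP1 at 13.40 and in ATF4 at 12.75, and high in SESN2 at 10.77. Also in the 24 h control, DNAJB11 was low in replicate 2 at 13.13 and PSPH in replicate 1 at 9.51. In the 6 h control, ATF4 was low in replicate 5 at 10.82, PDIA3 high in replicate 6 at 15.35 and CEBPB high in replicate 4 at 15.97, near the end of the scale. The sample low in ATF4 at 6 h had a surface component with an SD of 0.52, against a median of 0.11 over samples, and the part of the surface in its value was not tested. The PSPH and both ATF4 values were the ones furthest from the other controls, whose nearest values were 11.86 for PSPH and 14.47 and 14.55 for ATF4.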

How the results depend on the processing

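None of the 35 genes passed in any labelled comparison under each alternative normalisation, block, filter or left-out sample, with 1 exception. In the fit of the contrast's own groups 2 passed in samples labelled Graphite 24 h, HSPA5 and HYOU1, against 0 with all groups. HYOU1 had 1.33 in both fits. The replicate block, by letter of the sample code or by title number, gave 0 passing genes in every comparison, as did leaving out each sample in turn. ERN1 in samples labelled Fullerene 24 h ranged between -0.03 and 0.47 as samples were left out, with -0.03 without Fullerene 24 h replicate 2, against 0.24 with all samples. Between column sets 26 to 30 genes passed as samples were left out and 27 without a term for position, an alternative chosen after seeing the data. The correlation of the arm means over samples was -0.408 with medians over genes in place of means, and between -0.077 and 0.061 as samples were left out. Within column sets it was -0.38 without the 7 amino acid response genes and -0.50 without genes near the end of the scale, choices also made after seeing the data, and it stayed between -0.75 and -0.61 under the other alternatives and left-out sets tried. Medians of the ATF4 arm within single comparisons moved with exposed samples left out, as with controls: from 0.166 to 0.54 for rCNT 24 h, -0.027 to 0.376 for tCNT 24 h, -0.057 to 0.335 for Baytube 24 h and -0.142 to 0.327 for rCNT 6 h, with exposed samples at both ends, and -0.139 to 0.144 for Graphite 6 h, with controls at both. Precision is limited by the spread between column sets and by the end of the scale for CALR, CEBPB and MANF. Columns that shared values were not those that the array labels put together, and whether any group label is wrong was not tested. An absent response and a mislabelled one therefore cannot be told apart.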
